A study of Mus musculus with 2 samples.

Results

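The cytosolic ribosomal protein genes encode the proteins that, with ribosomal RNA, form the large and small subunits of the ribosome. They were chosen here by name: mouse symbols that begin with Rpl or Rps and a digit, with Rpsa, Rplp0, Rplp1 and Rplp2, without pseudogenes whose symbol ends in -ps and without the Rps6k kinases. Of 87 such symbols, 84 reached a mean of 10 CPM (counts scaled to a common library total) over cells and form the set, out of 33757 features counted. By symbol, 49 belong to the large subunit, 34 to the small subunit, and Rps19bp1 encodes a protein that binds Rps19 and is not part of the ribosome.

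The cells were mouse fibroblasts of the line NIH3T3-Rev-VNP1-H2B-iRFP, a derivative of NIH3T3. It carries a Venus fluorescent reporter of Nr1d1, a circadian clock repressor, and a nuclear marker in which iRFP, a near-infrared fluorescent protein, is joined to histone H2B. All cells shared both reporters, were not synchronized and were harvested at 95% confluency, about 5 days after seeding. Live cells were sorted 1 per well along 4 bins of Venus brightness, from bin 1 (dimmest) to bin 4 (brightest), on 2 plates of 384 wells, and sequenced by FLASH-seq, which covers transcripts over their full length. By the sorting record, the high iRFP sort was all on plate 1 and the low iRFP sort all on plate 2, so plate and sort cannot be told apart. The sample labels instead describe both iRFP bins for each plate; the per-cell record is followed here, and the conflict is not resolved. A given bin occupied identical well columns, 6 in number, on either plate, and bin and well column cannot be told apart either. Nothing states whether the plates came from separate cultures, and p-values below measure only the spread among sums of cells from these 2 plates.

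The 762 cells kept, of 768, had median totals of 835930 counts on plate 1 and 857229 on plate 2. The plates shared no cell name. Defining fibroblast transcripts were high, with Col1a1 at 8466 CPM and Pdgfra at 115 CPM, and of the markers of other cell types the highest was Cdh1 at 4.74 CPM.

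Ribosomal protein mRNAs are among the best known examples of coordinated expression, and the subunits assemble in fixed proportions. Most of them begin with a run of pyrimidines directly at the cap, the 5′ terminal oligopyrimidine (TOP) motif, through which the growth kinase mTOR and the RNA-binding protein Larp1 control their translation and stability. Translation factors such as Eef1a1 and Eef2 carry the same motif. Building the ribosome needs a further group, the biogenesis factors of the nucleolus.

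The sequence around the annotated transcription start is shown for genes at both ends of the coordination described below, because that is where the TOP motif would lie. RefSeq windows on build GRCm38.p6 matched 63 of the 84 genes. Each line gives 25 bases before to 25 bases after the start, 5′ to 3′ on the coding strand, with every CTTTC, a short pyrimidine string typical of TOP starts, in capitals. Rps15a (chr7:118116123-118116172, minus strand), Rpl27a (chr7:109519170-109519219, plus strand), Rpl28 (chr7:4792940-4792989, plus strand), Rps26 (chr10:128626482-128626531, minus strand) and Rpl10a (chr17:28328446-28328495, plus strand) were the genes that followed the others most closely.
Rps15a: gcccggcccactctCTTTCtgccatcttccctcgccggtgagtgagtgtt
Rpl27a: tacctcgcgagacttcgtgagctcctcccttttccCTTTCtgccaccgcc
Rpl28: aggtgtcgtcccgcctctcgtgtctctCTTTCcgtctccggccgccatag
Rps26: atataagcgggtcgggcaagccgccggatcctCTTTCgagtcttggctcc
Rpl10a: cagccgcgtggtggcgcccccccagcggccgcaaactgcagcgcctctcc
The next 5 followed them least: Rpl39l (chr16:10170203-10170252, plus strand), Rps27l (chr9:66946061-66946110, plus strand), Rpl7l1 (chr17:46782632-46782681, minus strand), Rps19bp1 (chr15:80264282-80264331, minus strand) and Rpl36al (chr12:69184043-69184092, minus strand).
Rpl39l: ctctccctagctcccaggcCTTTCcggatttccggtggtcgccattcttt
Rps27l: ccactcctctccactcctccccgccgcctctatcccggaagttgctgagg
Rpl7l1: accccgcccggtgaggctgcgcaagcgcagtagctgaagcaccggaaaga
Rps19bp1: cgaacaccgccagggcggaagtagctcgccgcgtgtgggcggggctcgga
Rpl36al: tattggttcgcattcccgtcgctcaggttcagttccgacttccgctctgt
The last 4 are the genes with the steepest fall and a rise across the Venus bins: Rps27 (chr3:90213624-90213673, minus strand), its near copy Rps27rt (chr9:114982715-114982764, minus strand), Rpl15 (chr14:18270962-18271011, minus strand) and Rps2 (chr17:24720038-24720087, plus strand).
Rps27: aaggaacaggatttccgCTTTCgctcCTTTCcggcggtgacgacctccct
Rps27rt: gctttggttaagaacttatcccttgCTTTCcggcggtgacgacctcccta
Rpl15: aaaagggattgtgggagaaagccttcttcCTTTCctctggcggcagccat
Rps2: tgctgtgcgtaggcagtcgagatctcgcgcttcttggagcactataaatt

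CTTTC occurred on the coding strand of this 50-base window in 19 of the 63 ribosomal protein genes with an entry, or 30.2%. Over all 27025 genes of the table the share was 6.60%, and over 6777 other genes expressed in these cells at 10 CPM or more it was 4.85%. Its extension CTTTCC, which overlaps it, was found in 17.5% of the ribosomal protein genes and 2.42% of all genes. CCGGAAG, the core bound by GABPA and other ETS factors, lay on either strand of the 300-base window from 250 before to 50 after the start in 39.7% of the set, 9.12% of all genes and 21.3% of the other expressed genes. CACGTG, the E-box that both Myc and the clock factors bind, was present in 7.94% of the set, 7.24% of all genes and 11.4% of the other expressed genes. These are matches of letters in fixed windows, and a start placed a few bases off in the annotation moves the window.

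Ribosomal protein mRNA made up 11.88% of all gene counts on plate 1 and 11.40% on plate 2. The median member stood at 1317 CPM, against 42.3 CPM for all genes at 10 CPM or more, and 52 of the 128 genes above 1000 CPM belonged to the set. Counts were found in every cell for 83 of the 84 genes. The exception was Rpl7l1, found in 99.9% of cells. The -ps pseudogene rows, left out by the rule, held only 0.109% of all counts in 182 rows, so few deposited counts lay on these copies. Among individual cells, the ribosomal protein share ranged from 7.34% to 19.4% on plate 1 and from 6.77% to 19.3% on plate 2, with a coefficient of variation of 15.7% and 15.3%.

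Levels of the individual genes were far from equal. Divided by exon length in kilobases, the median level was 1723 CPM per kb over the 83 genes with a length. The 10th and 90th percentiles lay 11.5-fold apart. Each length was the median over the annotated protein-coding transcripts of the gene, so values and ranks per kb depend on the annotation. Rps15a, at 1785 CPM, had a length of 5.13 kb and came to 348 CPM per kb, and the length of Rpl5 was 2.045 kb. The highest were Rpl41, which encodes the smallest protein of the large subunit, at 7160 CPM per kb, Rps4x, the X-linked copy of a small-subunit protein, at 6106, Rpl32 at 4178, Rps3a1 at 3862 and Rps28 at 3622. The lowest were Rps19bp1 at 58.4 CPM per kb, Rpl7l1, a relative of Rpl7 linked to large-subunit assembly, at 77.5, Rpl36al, a paralog of Rpl36a, at 119, Rpl5 and Rps10, both at 161. Rpl5, which binds the 5S ribosomal RNA and Mdm2, and Rps10 both share exon sequence with another annotated gene, as 38 of the 84 genes do, and counts of such genes are uncertain. For Rps10 the 3 -ps rows added 42.1 CPM to its own 104 CPM. Rpl24, which encodes a large-subunit protein, had 36 counts in all, 0.057 CPM, and overlaps the annotated gene Gm28037; the part of the overlap in this level was not tested. Of the other symbols under the minimum, Rpl6l was just outside it at 7.79 CPM and Rpl3l, the muscle paralog of Rpl3, was at 0.088 CPM. The member just inside was Rps3a2 at 42.8 CPM, a near copy of Rps3a1.

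The Venus axis was examined first at the level of the whole set. The summed ribosomal protein share was 12.47%, 12.20%, 11.75% and 11.10% in bins 1 to 4 of plate 1. On plate 2 it was 11.72%, 11.31%, 11.83% and 10.72%. Bin 4 was the lowest on both plates, plate 1 fell at every step, and plate 2 rose from bin 2 to bin 3. The means over plates were 12.09% ± 0.53 (SD, n = 2) in bin 1, 11.76% ± 0.63 in bin 2, 11.79% ± 0.06 in bin 3 and 10.91% ± 0.27 in bin 4. The sums held 76042157 to 86612194 counts, so the 95% exact binomial limits, which cover counting error only, lay within 0.0075 percentage points of each share. Large- and small-subunit genes moved together: the ratio of their summed counts stayed between 1.28 and 1.35 in the 8 sums. The share is a score over the chosen genes and is given without a test.

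**Figure D1:**
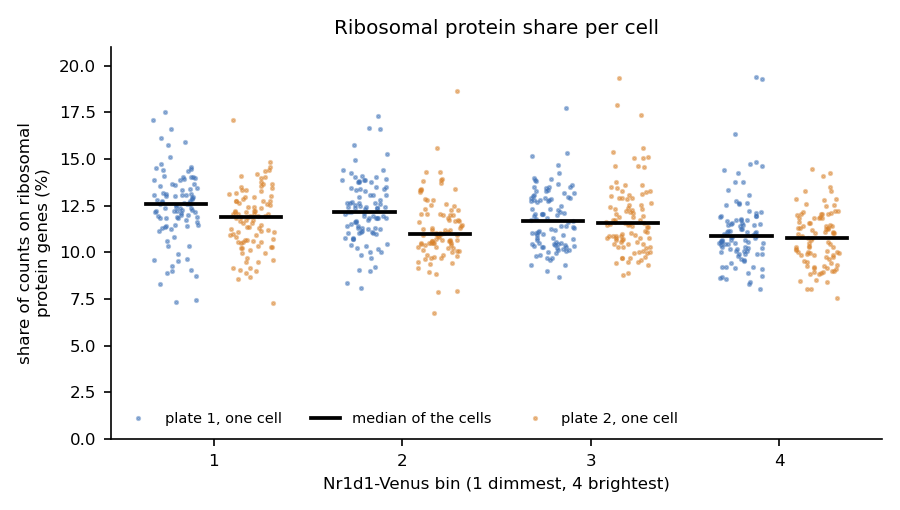
Share of counts on the 84 ribosomal protein genes (y axis, percent) in each of 762 cells by Venus bin (x axis), with plate 1 in blue and plate 2 in orange and a black bar at the median of the cells. The bin 4 medians, 10.9% on plate 1 and 10.8% on plate 2, lie below those of the other bins, and the cells of all bins overlap widely.

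Tested gene by gene, 42 of the 84 ribosomal protein genes fell toward bright Venus and 4 rose, by edgeR's quasi-likelihood test over the 8 sums of plate and bin at an adjusted p under 0.05. Over all 18430 genes tested, 8.64% were called lower and 6.78% higher, 15.4% in either direction. The fall was shared by the subunits, with 23 of 49 large-subunit and 19 of 34 small-subunit genes called lower. The median trend of the set was -0.055 log2 per bin, beside 0.001 for all genes tested, so most falls were small. On plate 1 alone the median was -0.073 and on plate 2 alone -0.038, values without a test, and each of the 42 genes fell more steeply on plate 1. All 84 passed the filter on low counts.

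The largest falls were in Rps27, Rps27rt, Rpl15, Rps3a1 and Rps14. Rps27, a zinc-binding protein of the small subunit, stood at 1246, 1015, 885 and 805 CPM in bins 1 to 4 of plate 1 and at 1002, 856, 835 and 718 CPM on plate 2. It fell at every step on both plates, and its trend was -0.196 ± 0.021 log2 per bin (SE; adjusted p = 0.0021, edgeR). Its near copy Rps27rt went from a bin 1 mean of 73.6 ± 6.8 CPM (SD, n = 2 plates) to a bin 4 mean of 50.1 ± 1.0 CPM, a trend of -0.195 ± 0.029 (adjusted p = 0.0059, edgeR). Reads of near-identical copies can be split between them in counting, so the 2 trends are not separate observations.

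Rpl15, a large-subunit protein, went from 1102 to 956, 857 and 788 CPM on plate 1 and from 1003 to 859, 845 and 771 CPM on plate 2. Each step was downward on both plates, with a trend of -0.156 ± 0.017 log2 per bin (adjusted p = 0.0024, edgeR). Rps3a1, a small-subunit protein near the mRNA exit, went from a mean of 4424 ± 497 CPM in bin 1 to 3298 ± 25 CPM in bin 4 (SD, n = 2 plates), a trend of -0.152 ± 0.022 (adjusted p = 0.0058, edgeR). Its near copy Rps3a2 had a trend of -0.148, with the same limit on telling copies apart. Rps14, a small-subunit protein known from its loss in 5q- syndrome, averaged 1524 ± 122 CPM in bin 1 and 1145 ± 6 CPM in bin 4. For all 6 of these genes both bin 4 sums lay below the 6 other sums.

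The 4 genes that rose were Rps27l, Rps2, Rps19bp1 and Rpl7l1. Rps27l, a paralog of Rps27 known as a target of p53, stood at 201, 202, 250 and 288 CPM on plate 1 and at 216, 211, 232 and 293 CPM on plate 2. The 2 bin 4 sums were the highest of the 8, and the trend was 0.148 ± 0.017 log2 per bin (adjusted p = 0.0027, edgeR). Rps2, a core protein of the small subunit, was the only 1 of the 4 outside the near-name genes. Its level rose from 1161 to 1314, 1432 and 1500 CPM on plate 1 and went from 1196 to 1266, 1478 and 1458 CPM on plate 2. Its trend was 0.098 ± 0.013 (adjusted p = 0.0047, edgeR); exons of Rps2 overlap Snhg9 and Snora64 in the annotation. Rpl7l1 averaged 141 ± 11 CPM in bin 1 and 174 ± 9 CPM in bin 4, and Rps19bp1 45.1 ± 4.9 CPM and 54.3 ± 4.9 CPM (SD, n = 2 plates). Rpl7l1, at 0.080 ± 0.016 log2 per bin, was called at an adjusted p of 0.017 and Rps19bp1, at 0.088 ± 0.023, at 0.039 (edgeR).

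**Figure D2:**
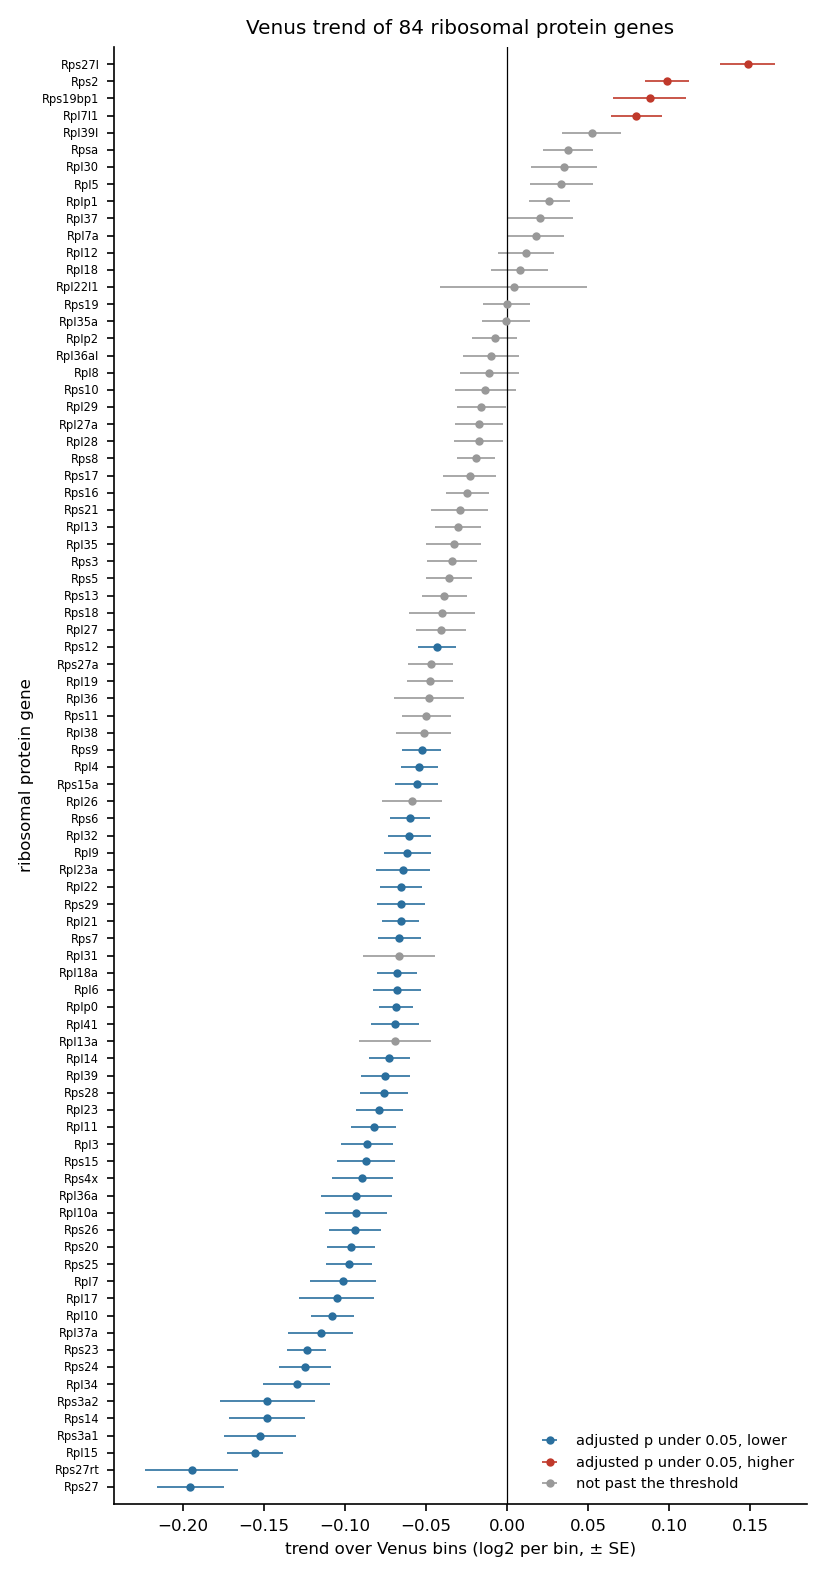
Trend over the Venus bins (x axis, log2 per bin) of each of the 84 ribosomal protein genes (y axis), with standard errors, coloured by edgeR's call at an adjusted p under 0.05. The points run from -0.196 for Rps27 to 0.148 for Rps27l, with 42 genes called lower and 4 called higher.

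Several near-name genes did not follow their partner. Rps27 fell while Rps27l rose. Rpl7, at -0.101 ± 0.020 log2 per bin (adjusted p = 0.017, edgeR), fell while Rpl7l1 rose. Rpl39 fell by 0.075 ± 0.015 log2 per bin (adjusted p = 0.017, edgeR), and its paralog Rpl39l, best known from male germ cells, had a trend of 0.052 ± 0.018 that did not pass (adjusted p = 0.099, edgeR). Rpl36a fell by 0.093 ± 0.022 log2 per bin (adjusted p = 0.030, edgeR), and Rpl36al was at -0.010 ± 0.017 (adjusted p = 0.76, edgeR). Rpl22 fell by 0.066 ± 0.013 log2 per bin (adjusted p = 0.015, edgeR), and its paralog Rpl22l1, which ranged from 320 to 451 CPM over the 8 sums, was at 0.004 ± 0.045 (adjusted p = 0.97, edgeR). The difference between the partners was not tested. Of the 7 near-name genes 3 were called higher and 1 lower, and of the other 77 members 1 was called higher and 41 lower. Over all genes tested, 6.78% were called higher and 8.64% lower. Rps3a2, the near copy of Rps3a1, was called lower and was counted among the 77.

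Genes often used as references were spread over this range. Rplp0, the stalk protein that anchors Rplp1 and Rplp2, stood at 2876, 2859, 2756 and 2594 CPM on plate 1 and at 2745, 2681, 2619 and 2449 CPM on plate 2. It fell at each step on both plates, with a trend of -0.069 ± 0.010 log2 per bin (adjusted p = 0.0065, edgeR). Rpl13a, at -0.069 ± 0.022 log2 per bin, did not pass (adjusted p = 0.074, edgeR). Rpsa, a small-subunit protein also described as a laminin receptor, was at 0.037 ± 0.015 and did not pass (adjusted p = 0.15, edgeR). Rpl10 fell by 0.108 ± 0.013 log2 per bin (adjusted p = 0.0033, edgeR) and Rpl3, which lies close to the peptidyl transferase centre, by 0.086 ± 0.016 (adjusted p = 0.013, edgeR).

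**Figure D3:**
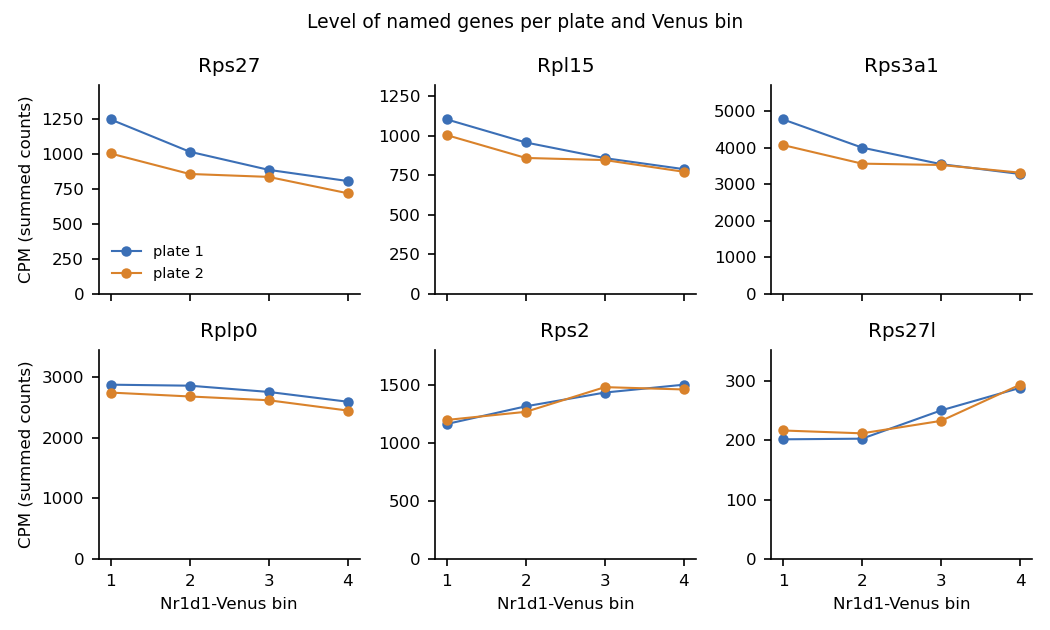
Level in CPM of summed counts (y axis, from 0) of Rps27, Rpl15, Rps3a1, Rplp0, Rps2 and Rps27l by Venus bin (x axis), 1 line per plate. Rps27, Rpl15 and Rplp0 go down at every step on both plates, while Rps27l is highest in bin 4, at 288 and 293 CPM.

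Most of these calls were lost without the brightest bin. With bin 4 left out, a choice made after seeing the data, the median trend of the set was 0.0025 log2 per bin. By edgeR 0 genes of the set were called lower and 1, Rps2, was called higher. At an unadjusted p under 0.05 by edgeR, 16 of the 84 were lower, beside 1881 of all 17790 genes. Of the 42 genes called lower with all bins, 37 still had a negative trend. Fewer genes were called at all in that fit, 1.15% of genes lower and 0.86% higher. The trends of Rps27 and Rpl15 were as large without bin 4 but did not pass, at -0.194 (adjusted p = 0.0508, edgeR) and -0.157 (adjusted p = 0.0501, edgeR). Without bin 1, 16 genes were called lower and 2 higher, and Rps2 did not pass (0.075, adjusted p = 0.11, edgeR). The calls over all genes without bin 1 are not reported here. Leaving out any 1 of the bins ended the call of Rps19bp1, with adjusted p-values from 0.060 to 0.19 (edgeR). Bin 4 set against the mean of bins 1 to 3, also added after seeing the data, gave 44 lower and 4 higher of the 84, where 5.67% and 4.75% of all genes were called. The median member was 0.17 log2 lower in bin 4. For 40 of the 84 genes the level in both bin 4 sums lay below all 6 other sums, which held for 7.17% of all genes tested. For 4 they lay above all others, beside 12.7% of all genes.

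Between bins 2 and 3 the plates differed: 64 of the 84 genes went down on plate 1, by a median of 0.04 log2, and 70 went up on plate 2, by a median of 0.076. From bin 3 to bin 4, 67 genes went down on plate 1 and 78 on plate 2. Without the plate term in the fit, 12 genes were called lower and 3 higher, beside 944 lower and 739 higher of all 18430 genes. Scaled by library totals in place of TMM, 38 were lower and 7 higher, while over all genes the calls went from 1250 higher and 1593 lower to 1575 higher and 1152 lower.

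The summed G2/M list and forward scatter had their highest medians in bin 4 on both plates. The median over cells of the summed G2/M list went from 833 CPM in bin 1 to 976 CPM in bin 4 on plate 1 and from 874 to 996 CPM on plate 2. Median forward scatter, which grows with cell size, went from 51418500 to 58860900 arbitrary units on plate 1 and from 46809500 to 52147600 on plate 2. Of the genes in the S phase list 12 of 42 were called higher along the Venus bins, and of the G2/M list 7 of 52 were called higher and 1 lower, where 6.78% of all genes were called higher and 8.64% lower. Within a plate and bin, the share of ribosomal protein counts ran against the summed G2/M list, with a Spearman correlation over 94 to 96 cells below 0 in all 8 plate and bin groups and a mean of -0.207. Among the cells at or under their group's median of that list, 19 of the 84 genes were called lower and 2 higher, Rps27l and Rps2, beside 3.67% and 3.93% of all genes, and the median was -0.040 log2 per bin. That fit held fewer cells, 382, and the part of cycle state in the trend of all cells was not tested.

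Other genes of translation were read from lists of genes outside the set. Of 19 TOP genes for translation factors and ribosome-associated proteins, 10 fell toward bright Venus and 2 rose, beside 8.64% and 6.78% of all genes, with a median of -0.068 log2 per bin. The largest falls were in Tpt1, a growth-related TOP mRNA, at -0.181 ± 0.017, Eif4b at -0.127 ± 0.018, Btf3 at -0.125 ± 0.014 and the elongation factor Eef2 at -0.121 ± 0.013. Their adjusted p-values by edgeR were 0.0013, 0.0053, 0.0024 and 0.0021. The list also holds ribosome components outside the naming rule. Fau, which encodes the small-subunit protein eS30 fused to a ubiquitin-like protein, fell by 0.068 ± 0.013 (adjusted p = 0.013, edgeR). Rack1, a scaffold on the small subunit, was at 0.019 ± 0.016 (adjusted p = 0.49, edgeR).

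Ribosome biogenesis genes had the other direction. Of 25 genes, namely nucleolar assembly factors, genes of RNA polymerase I transcription and Myc, 12 rose and 0 fell, beside 6.78% and 8.64% of all genes. At an unadjusted p under 0.05 by edgeR 0 of the 25 were lower, beside 2954 of all 18430 genes, and the median of the list was 0.077 log2 per bin. The largest rises were in Rrp9 at 0.199 ± 0.028, Nip7 at 0.170 ± 0.022, Nolc1 at 0.152 ± 0.021 and Bop1 at 0.152 ± 0.018, with adjusted p-values of 0.0055, 0.0037, 0.0046 and 0.0028 (edgeR). Rrp9, a protein of the U3 small nucleolar particle, went from a mean of 17.3 ± 1.1 CPM in bin 1 to 27.0 ± 0.3 CPM in bin 4 (SD, n = 2 plates). Among cells low in the G2/M list, 7 of these genes were called higher and 8 of the 19 TOP genes lower, beside 3.93% and 3.67% of all genes. Without bin 4 the counts were 0 of 25 and 1 of 19 (edgeR), beside 0.86% and 1.15% of all genes. In that fit 5 of the 25 were higher at an unadjusted p under 0.05 (edgeR), beside 1669 of all 17790 genes. Mitochondrial ribosomal protein genes, which encode a separate ribosome (-ps pseudogenes left out), were called higher in 10 and lower in 5 of 77 cases, beside 6.78% and 8.64% of all genes.

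Cells of the same plate and bin were then used to ask how far ribosomal protein genes varied together. Over the 3486 pairs of members, the median Spearman correlation of log2(CPM + 1) was between 0.375 and 0.505 in the 8 groups of 94 to 96 cells, with a mean of 0.424. For pairs of the other 8541 genes at 10 CPM or more the mean was 0.009, and for pairs of 194 other genes at 500 CPM or more it was 0.014. Between 90.9% and 94.5% of member pairs were positive. Small-subunit pairs stood at 0.472, large-subunit pairs at 0.403 and mixed pairs at 0.435, and the summed large- and small-subunit levels had correlations of 0.919 to 0.962. The cells share a plate, a library preparation and, in CPM, a common total. With depth taken out by regression the mean was again 0.424.

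The genes that followed the others most closely were Rps15a at 0.567, Rpl27a at 0.544, Rpl28 at 0.537, Rps26 at 0.535 and Rpl10a at 0.533 (mean over the 8 groups of the median correlation with the other members). Of these, 4 have CTTTC in the start windows printed above and Rpl10a has not. Over the set, 19 of the 63 genes with a window have it. A relation of CTTTC to these correlations over the 63 genes was not tested. The genes that followed least were Rpl39l at -0.132, Rps27l at -0.062, Rpl7l1 at -0.036, Rps19bp1 at 0.011 and Rpl36al at 0.106, and among their windows only that of Rpl39l has CTTTC. Rpl22l1 came next at 0.185. For Rpl39l the 8 groups ranged from -0.325 to 0.069, so its sign was not the same in all of them. These genes are also weakly expressed, from 49.0 CPM for Rps19bp1 to 237 CPM for Rps27l, and the part of counting noise in their low values was not tested. The near copy Rps27rt, at 60.6 CPM, had 0.413 and Rpl13a, at 155 CPM, had 0.282.

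The 5 members that varied most from cell to cell were near-name genes. The coefficient of variation of CPM over all cells was 64.2% for Rpl22l1, 45.8% for Rps19bp1, 41.8% for Rpl39l, 39.3% for Rps27l and 35.5% for Rpl7l1. The other near-name genes, Rps27rt at 34.8% and Rpl36al at 26.1%, were less variable. The median of the set was 22.9%, and Rpl27 had the lowest value at 17.7%. Among genes above 1000 CPM, the 52 members had a median of 21.3% and the 76 other genes 33.3%.

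**Figure D4:**
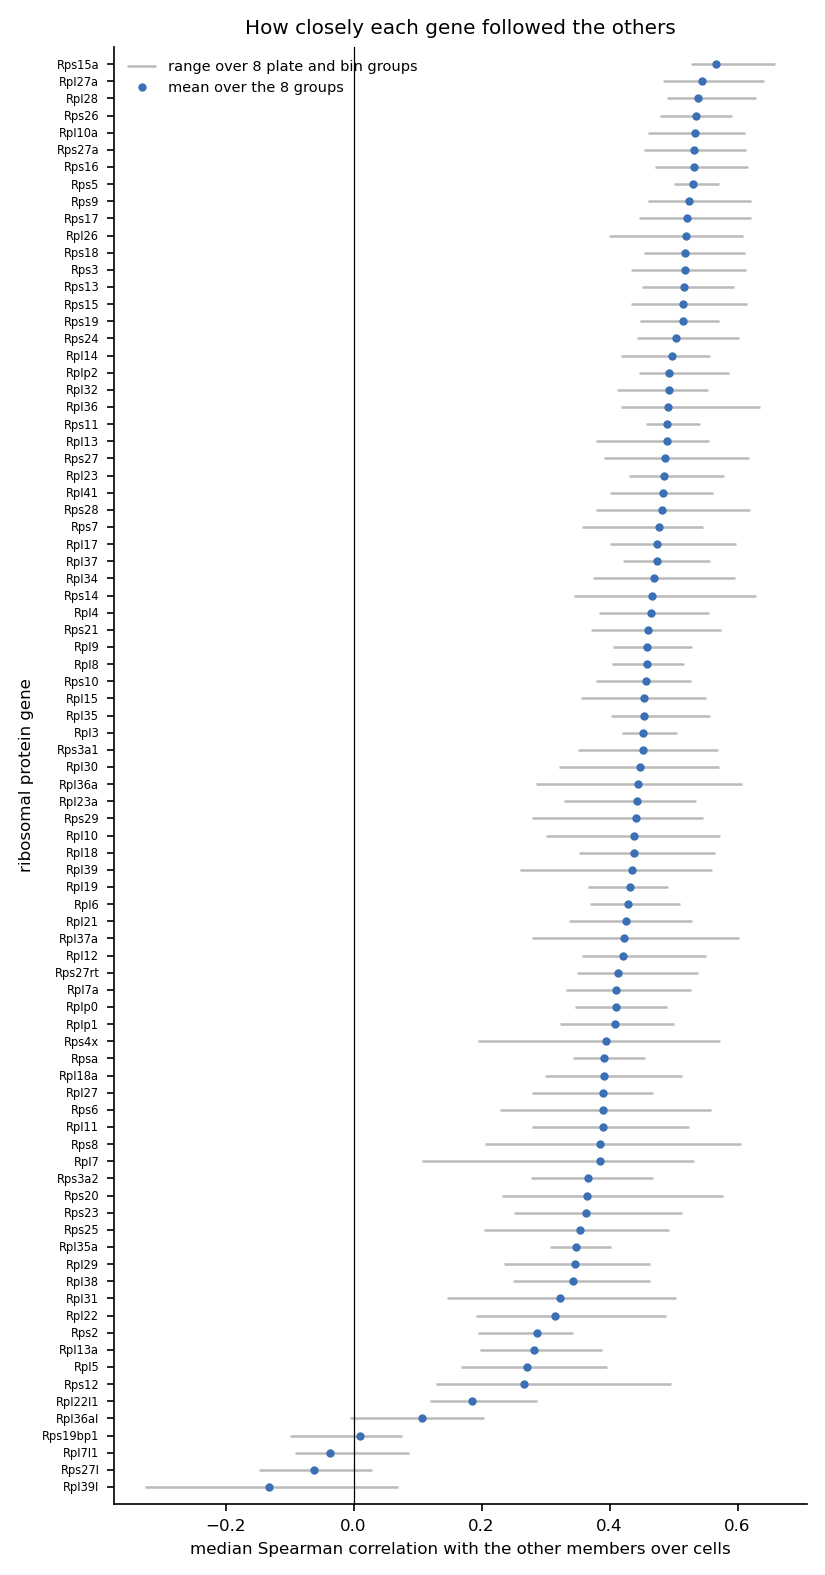
Median Spearman correlation over cells of each ribosomal protein gene (y axis) with the other members (x axis), as the mean (point) and the range (line) over the 8 groups of plate and bin. Most genes lie between 0.3 and 0.57, and Rpl36al, Rps19bp1, Rpl7l1, Rps27l and Rpl39l stand apart at the low end.

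TOP genes outside the set varied with it. All 19 had a positive correlation over cells with the ribosomal protein share, in the mean over the 8 groups, with a median of 0.507, led by Eef1b2 at 0.671, Rack1 at 0.654, Eef1a1 at 0.644 and Fau at 0.625. For the 8541 other genes the median was -0.057 and for the 25 biogenesis genes it was -0.028. The share and each gene have the same total in common, so these values are set against each other and not against 0. Rack1 and Eef1a1 varied with the set from cell to cell, and neither was called along the Venus bins.

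Forward scatter was used to ask whether the ribosomal protein genes scale with cell size. Within each plate and bin the cells were split at the median forward scatter, and the larger cells had a 1.27- to 1.46-fold higher median than the smaller ones. None of the 84 genes was called between larger and smaller cells by edgeR (16 sums, plate and bin as a block of 8 levels), and 0% of the 14835 genes tested were. The median difference of the set was 0.005 log2. At an unadjusted p under 0.05, 1 member and 8.22% of all genes passed. DESeq2 called 59 genes and limma voom 0, neither with a member among them. On simulated counts with a common spread for all genes, the edgeR fit recovered only 5% of differences of 0.3 log2 and 87% of those of 0.6. That spread was not the spread of the set, where the median standard error was 0.028 log2. These rates therefore do not carry over to the 84 genes.

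The intervals were narrow. The 95% interval of the difference lay inside ±0.2 log2 for all 84 genes, with outer limits of -0.165 and 0.165 and a median width of 0.062 to either side. The 1 member at an unadjusted p under 0.05 was Rplp1, an acidic stalk protein, 0.060 log2 higher in larger cells (interval 0.010 to 0.111; adjusted p = 0.52, edgeR). Rplp0 was at 0.045 (-0.009 to 0.099) and Rpl22l1 at -0.080 (-0.165 to 0.006), both with adjusted p-values above 0.6 (0.68 and 0.64, edgeR). A relative level is measured here, so an increase of ribosomal protein mRNA in step with all other mRNA would leave no difference in CPM.

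The 2 plates gave medians of opposite sign, -0.008 log2 on plate 1 and 0.025 on plate 2 (from log2 CPM of each plate, with no test), and the difference between plates was called for 0 of the 84 genes and for 0% of all genes (edgeR). At an unadjusted p under 0.05 by edgeR, Rps3a1 was the 1 member of the 84 that passed. The share of all genes at that threshold is not reported here, so this count is not read as a result. In summed counts, the G2/M list stood at a median of 0.56 log2 in larger cells and the S phase list at 0.40, over 52 and 42 genes. Cell medians of the summed G2/M list, larger over smaller cells, were 1.03, 1.08, 1.01 and 1.23 in bins 1 to 4 of plate 1. On plate 2 they were 0.96, 0.99, 0.95 and 1.12. The summed S phase list had a mean Spearman correlation of -0.007 with forward scatter over the 8 groups. The part of cycle state in the size comparison of the set was not tested.

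**Figure D5:**
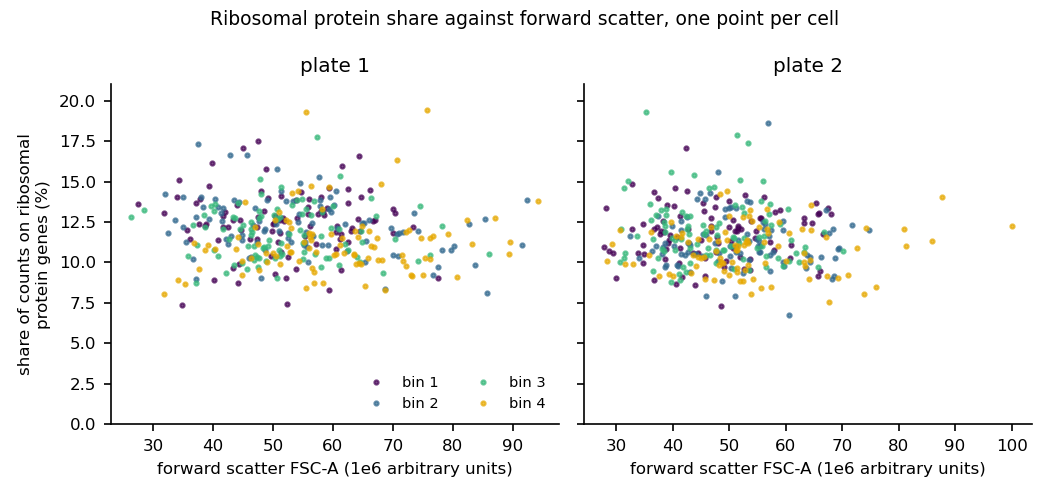
Share of counts on ribosomal protein genes (y axis, percent) against forward scatter (x axis, arbitrary units), 1 point per cell, coloured by Venus bin, for each plate. No slope common to the bins is seen, and the pooled Spearman correlations are -0.117 on plate 1 and -0.043 on plate 2.

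Cell by cell, the Spearman correlation of the ribosomal protein share with forward scatter within a plate and bin ranged from -0.294 to 0.115, with a mean of -0.028 over the 8 groups and a positive sign in 3. The lowest value came from bin 2 of plate 1, the only group beyond -0.1. Single genes had mean correlations with forward scatter from -0.135 for Rpl10 to 0.077 for Rps20, inside the range of -0.192 to 0.188 over the 8541 other genes. The median over members was -0.024, with 28 of 84 positive. Over the other genes it was -0.003, with 4004 of 8541 positive.

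Plate 1, which by the sorting record but not by the sample labels held the high iRFP sort alone, had more ribosomal protein mRNA than plate 2. With 1 library preparation per plate there is no test. The median log2 ratio of plate 1 to plate 2 over the set was 0.13 under TMM scaling, with 80 of 84 genes above 0. By library totals it was 0.068, with 70 above 0, because the TMM factors shift all genes by 0.064. By bin, in library totals, the medians were 0.088, 0.117, 0.007 and 0.051 for bins 1 to 4, so bin 3 had nearly none of it. The highest ratios were in Rps12, Rps27 and Rps20 and the lowest in Rpl7l1, Rps19bp1 and Rpl22l1. Rps12, a small-subunit protein, had 1478 CPM on plate 1 and 1187 CPM on plate 2, a ratio of 1.24 (95% interval 1.24 to 1.25, counting error only), and it was higher on plate 1 in every bin by 0.29 to 0.33 log2. Rpl7l1 had 145 and 158 CPM, a ratio of 0.915 (0.903 to 0.926), and was lower on plate 1 in every bin. The median mitochondrial share of counts was also higher on plate 1, at 9.27% against 7.42%. With mitochondrial genes left out, the median log2 ratio under TMM scaling was again 0.13, with 80 of 84 genes above 0. TMM factors are set by the bulk of genes, so leaving out these few rows could hardly move that ratio. Of the counts left without mitochondrial genes, ribosomal protein genes held 13.14% in plate 1 cells, against 12.34% in plate 2 cells. A link between mitochondrial content and the plate ratios was not tested.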

How the data were processed

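The authors deposited raw counts per gene and cell and a sorting record of fluorescence and scatter intensity per cell in arbitrary units. The submitters' processing notes name STAR 2.7.11a, SAMtools, bedtools, HTSeq and the build GRCm39 (mm39), with no roles. Use of strand, of molecular identifiers and of reads that map to several places is not given in the sources used here, so copies and antisense partners are uncertain and intervals cover counting error only.

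Cells with at least 1000 genes, at least 0.1 of their plate's median total and at most 25% mitochondrial counts were kept, 762 of 768. No doublet caller was run, since 1 cell was sorted per well. Features without a symbol held 1.10% of counts. Counts were summed per plate and bin (8 sums), or also by forward scatter (16 sums). Library totals were 320679261 and 321542588 counts.

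For the tests on sums, R 4.3.3 with edgeR 4.0.16 was used: the quasi-likelihood test after TMM and filterByExpr, with Benjamini-Hochberg adjustment over all genes tested and a threshold of 0.05. The Venus model held bin and plate, with a linear contrast in log2 per bin. Single-plate trends used a prior count of 2. The fits were tested on simulated data first, with a common spread for all genes. There the Venus fit recovered 95% of trends of 0.3 log2 per bin. The scatter fit recovered 5% of differences of 0.3 log2 and 87% of those of 0.6. DESeq2 1.42.0 and limma 3.58.1 served as alternatives, and figures were drawn with matplotlib 3.10.9.

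Members, gene lists and tests were chosen with earlier results of these data known. Genes named were the 5 largest rises and falls called with the same sign on both plates (all 4 rises), the 5 highest and lowest per kb and by correlation, the 3 highest and lowest plate ratios, Rplp0, Rpl13a, Rpsa, near-name genes with their partners, Fau and Rack1, and up to 4 genes per list; 1 gene of this rule is not reported here by name. Rps3a2, Rplp1, Rps20 for scatter, Rpl24, Rpl6l and Rpl27 were named after their values were seen. Exon lengths and overlaps came from GENCODE vM21 (GRCm38), a different build, and served for no coordinate. The list of 14 TOP regulators had 1 gene called along the bins, Larp4, which was higher.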

Additional observations from a re-analysis of the deposited data

How the results depend on the processing

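The fall of the ribosomal protein genes with Venus kept a negative median under every alternative except 1. With bin 4 left out the median was 0.0025 log2 per bin, with 0 genes lower and 1 higher, and that fit also had fewer sums. Without bin 1 there were 16 lower and 2 higher, and in cells low in the G2/M list 19 lower and 2 higher. Library totals in place of TMM gave 7 higher. The plate is the replicate block: without it 12 genes were called lower, all among the 42, and 3 higher. Of all 18430 genes, 944 were then called lower and 739 higher. Plate by plate the median trend was -0.038 to -0.073, the scatter difference, fitted by edgeR on each plate's sums, -0.0067 to 0.0217, the share 11.4% to 11.9%, its slope -0.032 to -0.056 log2 per bin, the coordination 0.414 to 0.434 and the correlation of share and forward scatter -0.059 to 0.003. With mitochondrial genes left out of the total the share was 12.7%. Coordination was 0.439 by Pearson on log2(CPM + 10) and 0.459 without near-name genes. The correlation of share with scatter was -0.080 with bins pooled, and the plate ratio by library totals 0.068. Of single named genes, 245 values were labelled as unchanged, 37 as weaker and 4 as stronger. The 245 include values from 1 plate alone, which had no test and were judged by sign only. The signs that turned were those of trends near 0 or without bin 4: Rpl13a (0.0175) and Rpl39l (-0.0155) without bin 4, Rpl36al without bin 4 (0.055), on plate 2 alone (0.0058) and by library totals (0.0069), and Rpl22l1 on plate 1 alone (-0.0483) and without bin 2 (-0.0031) or bin 3 (-0.0013). On the other plate alone, Rpl36al (-0.0265) and Rpl22l1 (0.0556) kept their sign. The cause was not tested.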

Other observations

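Over all 8541 genes outside the set at 10 CPM or more, the correlation with the ribosomal protein share over cells (Spearman, mean over the 8 groups of plate and bin) ran from -0.416 to 0.714. These genes were picked after the ranking was seen, and the values are a description. At the upper end stood predicted genes and ribosomal protein pseudogene rows such as Gm11361 at 0.714, Rpl10a-ps1 at 0.701 and Rpl3-ps1 at 0.668, and reads of such rows and of near-identical parent genes cannot be told apart here. Among the top 25, Wdr89 at 0.638 and Cox7a2l at 0.539 were in none of the lists. Genes at the lower end included Eif4g1, the scaffold of the cap-binding complex, at -0.416, the membrane protease Adam9 at -0.414 and the translation release factor Gspt1 at -0.393. Eif4g1 and Gspt1, both translation factors, were negative, and all 19 genes of the TOP list were positive.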
